A study of Arabidopsis thaliana with 6 samples.

Results

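Pectin methylesterases are the wall enzymes of Arabidopsis thaliana that remove methyl groups from homogalacturonan, the main pectin of the primary cell wall. Demethylated stretches can be bridged by calcium, which stiffens the wall, or can be cut by polygalacturonases and pectate lyases, which loosens it. Most family members carry an inhibitor-like region before the enzyme domain that subtilisin-type proteases remove, and separate inhibitor proteins block the mature enzyme. Members are known from growing tissues, pollen tubes, seed-coat mucilage and infected leaves, where the methylation of pectin also sets how many pectin fragments reach immune receptors.

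The family was defined as 60 loci, and a locus was measured where the platform annotation paired a probe set with that gene alone. This held for 40 of the 60 loci, 1 probe set each. Another 4 loci lay only on probe sets shared by 2 genes, one for the pollen genes PPME1 and AT5G07410 and the other for the pollen genes VGD1 and VGDH1. The annotation used here listed no probe set for the remaining 16, among them AT3G14310, AT2G45220 and AT1G11580, so these were not analysed here. All 40 measured members were tested, with no filter on low values.

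The arrays hold total RNA from whole seedlings of the accession Wassilevskija (WS), 3 arrays of wild type and 3 of the atr8 mutant, a line of the same accession affected in the long non-coding RNA AtR8. All seedlings were 10 days old, all were put for 6 h into water purged of air, and all then recovered for 22 h on agar medium, so both groups carry the low-oxygen stress and its recovery. The type of atr8 allele and the number of independent mutant lines per array are not stated in the labels. The series calls the 3 arrays of each genotype biological replicates. In RNA from whole seedlings, fewer cells that use a gene and less of its RNA per cell cannot be told apart.

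Among the quality controls, actin's 3′ probe set read 28.9 times its 5′ one on mutant replicate 2 and 19.6 times on replicate 3, which were apart from the other arrays. The ratio was 2.13 on mutant replicate 1 and ran from 2.17 to 2.66 on the wild-type arrays. What part this had in any difference below was not tested, so the value of mutant replicate 1 alone is given beside those of the members with separated arrays and beside the list medians. The leaf marker RCA, Rubisco activase, read 16016 to 33207, and the root-hair expansins EXPA7 and EXPA18 read 77.2 to 722.7, so shoot and root were both represented. The pollen markers VEX1, MGH3 and ACT12, 3 of 14 listed, read 3.28 to 139.2.

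The comparison of mutant with wild type addressed whether transcript levels of pectin methylesterase genes differ between the genotypes after stress and recovery. One member was called lower in the mutant, AT5G49180, a gene known for demethylating seed-coat mucilage. Its probe set was dim, and the call was lost when any single array was left out (limma adjusted p = 0.0564 to 0.135). The largest estimates in the other direction were those of AT2G47550 and AT4G02330, each about 2.6 times as high in the mutant on the scale of intensity + 16, and neither passed the threshold. The family as a whole had no common direction: 17 estimates were higher, 23 were lower, and the median log2 difference was −0.06, against −0.01 over all 22746 probe sets tested. Differences are of log2(intensity + 16), where intensity is the linear brightness of a probe set, and are called at an adjusted p under 0.05 by limma. By this rule 0 members were higher and 1 of 40 (2.5%) was lower, against a background of 0.919% of probe sets called in either direction, 0.712% higher and 0.207% lower. At an unadjusted p under 0.05 there were 4 higher and 4 lower members, 10.0% each, against 7.11% and 6.92% of all probe sets.

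The 3 mutant arrays lay wholly above the 3 wild-type arrays for 4 members and wholly below them for 4. These are also 10.0% each, close to the background of 11.2% above and 11.0% below. The 8 members with separated arrays were the same 8 with an unadjusted p under 0.05. Mutant replicate 1 alone lay above all wild-type arrays for 7 members (17.5%) and below them for 13 (32.5%), where 27.1% and 29.4% of all probe sets did so, and the family median was −0.20. Leaving out an array makes separation more frequent for any probe set. Without mutant replicate 1, 2 or 3 the members wholly below were 8, 7 and 7 (20.0%, 17.5% and 17.5%), against 19.4%, 15.3% and 15.0% of all probe sets. Those wholly above were 5 (12.5%) in each of these fits, against 19.6%, 14.9% and 14.7% of all probe sets. The family median was −0.30 without wild-type replicate 3, −0.28 without mutant replicate 2 and −0.18 without mutant replicate 3. It was −0.03 without mutant replicate 1, −0.09 without wild-type replicate 1 and −0.11 without wild-type replicate 2.

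**Figure D1:**
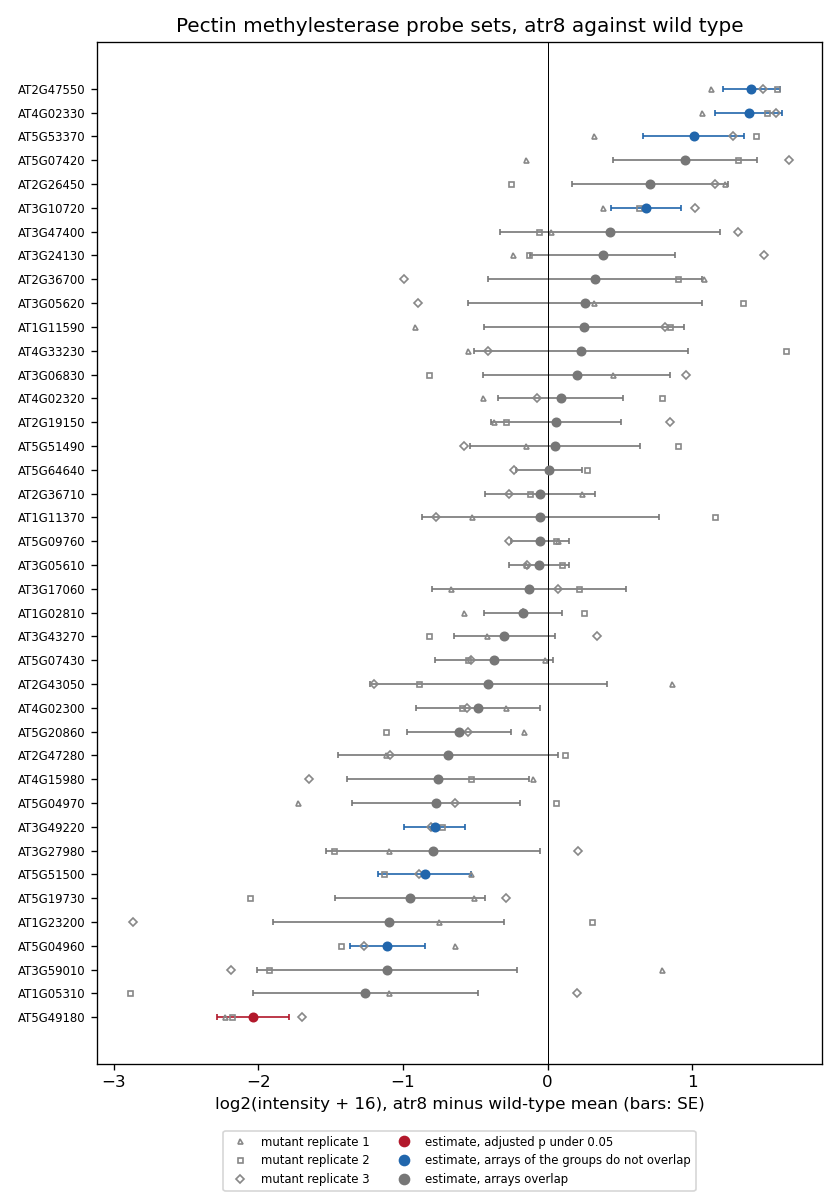
Log2 difference of each of the 40 measured pectin methylesterase genes, atr8 minus the wild-type mean, on the scale of log2(intensity + 16). Filled points with bars give the limma estimate and its SE, open symbols the 3 mutant arrays. AT5G49180 at −2.04 is the single red point, and the 4 blue points right of 0 and 3 left of it mark the other members whose arrays do not overlap.

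AT5G49180 is a member with a known role in the mucilage of the seed coat. It read 62.2, 64.2 and 92.9 on the wild-type arrays and 2.83, 3.40 and 11.1 on the mutant arrays. All mutant values lay below all wild-type values, and all were under the 16 added before the logarithm, so the size of the fall depends on that constant. The mean fell from 73.1 ± 17.2 (SD, n = 3) to 5.76 ± 4.59, a log2 difference of −2.04 ± 0.25 (SE; adjusted p = 0.0355 by limma), or 4.10-fold on the scale of intensity + 16. With 1 added the log2 difference was −3.63 (limma adjusted p = 0.0632), and with 64 added it was −0.97 (limma adjusted p = 0.0555). On mutant replicate 1 alone it was −2.23. The call was lost without any single array (limma adjusted p = 0.0564 to 0.135), with a block for replicate number (0.237), and when the prior was robust with a variance trend (0.0996). The probe set was dim enough that it was not among those tested once the dimmest 30 percent were left out.

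The second member known from seed-coat mucilage, AT1G23200, read 180.9, 131.4 and 101.8 in wild-type and 73.4, 171.2 and 4.58 in mutant seedlings. The groups overlapped, and the log2 difference of −1.10 ± 0.80 was not called (limma adjusted p = 0.580). A single array set much of it: the log2 difference was −0.22 without mutant replicate 3 and −1.81 without mutant replicate 2, and −0.75 on mutant replicate 1 alone. The pollen marker MGH3, a sperm-cell histone gene that was also dim, had a log2 difference of −1.69 ± 0.43 (limma adjusted p = 0.183). Its wild-type arrays read 24.8, 67.8 and 99.6 and its mutant arrays 3.96, 3.54 and 14.4, and its part in the fall of AT5G49180 was not tested. The other measured pollen markers, VEX1 at −0.83 ± 0.86 and ACT12 at −0.25 ± 0.40, overlapped between genotypes.

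AT2G47550 had the largest positive estimate of the family. Its wild-type arrays agreed closely, at 212.8, 205.1 and 216.1, and its mutant arrays read 482.6, 667.8 and 624.6. Every mutant array was more than 2 times as bright as any wild-type array. The means were 211 ± 5.66 and 592 ± 96.9 (SD, n = 3), and the log2 difference of 1.41 ± 0.20 lay just outside the threshold (limma adjusted p = 0.0504). It passed with cyclic loess normalization (limma adjusted p = 0.0488), without the dimmest 30 percent of probe sets (0.0190), with 64 added (0.0264), with a trend and robust prior (0.000372), with array weights (0.0297) and without mutant replicate 1 (0.0466). It did not pass with 1 added (limma adjusted p = 0.0635) or with the replicate number as a block (0.255). Without any one of the other arrays the limma adjusted p was 0.139 to 0.180, and on mutant replicate 1 alone the log2 difference was 1.13.

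AT4G02330, annotated as ATPMEPCRB or pectin methylesterase 41, is known from work on brassinosteroid-dependent chilling tolerance. It read 615.9, 672.7 and 789.6 in wild-type and 1467, 2005 and 2087 in mutant seedlings. The groups were clearly apart, with the lowest mutant array nearly doubling the highest wild-type one. The log2 difference was 1.39 ± 0.23 (limma adjusted p = 0.0705), from a mean of 693 ± 88.6 to 1853 ± 337 (SD, n = 3). It passed without the dimmest 30 percent (limma adjusted p = 0.0308), with 64 added (0.0296), with a trend and robust prior (5.72e-06) and with array weights (0.0414). It did not pass with 1 added (limma adjusted p = 0.0956), with cyclic loess (0.0677), with the replicate number as a block (0.253) or without any single array (0.0509 to 0.212). On mutant replicate 1 alone the log2 difference was 1.07.

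AT5G53370, annotated as PMEPCRF, read 675.8, 495.9 and 697.6 in wild-type and 775.8, 1697 and 1520 in mutant seedlings. Mutant replicate 1 lay only a little above the wild type, and replicates 2 and 3 lay far above it. The actin control ratios of replicates 2 and 3 were raised, and their part in this was not tested. Its log2 difference was 1.01 ± 0.35 (limma adjusted p = 0.295), with 0.32 on mutant replicate 1 against 1.44 and 1.28 on replicates 2 and 3.

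AT3G10720 read 826.4, 848.5 and 678.5 in wild-type and 1018, 1219 and 1599 in mutant seedlings. The groups did not overlap, and the log2 difference was 0.68 ± 0.24 (limma adjusted p = 0.308). It was 0.38 on mutant replicate 1, 0.63 on replicate 2 and 1.02 on replicate 3. With a trend and robust prior both genes passed (limma adjusted p = 0.0141 for AT5G53370 and 0.0303 for AT3G10720).

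**Figure D2:**
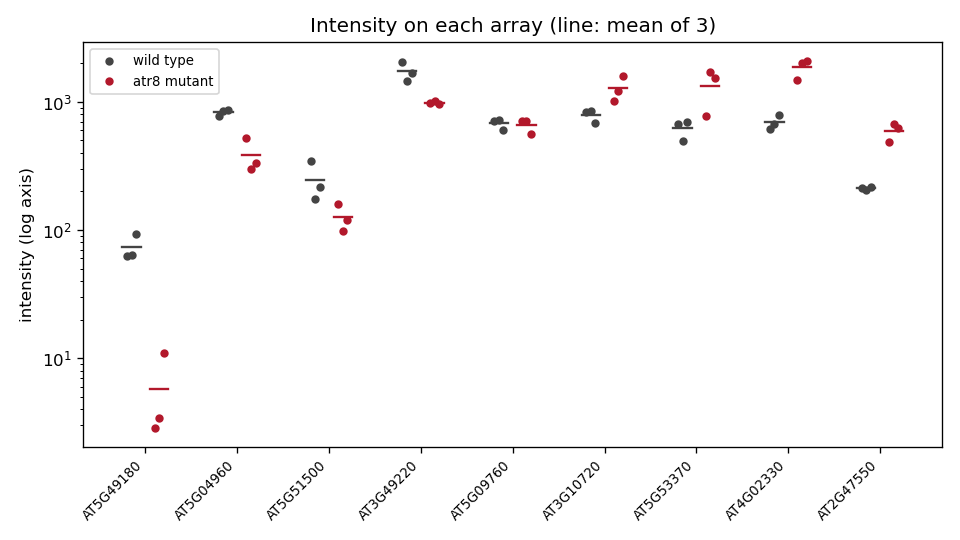
Intensity on a log axis of 9 members, the 8 with separated arrays and AT5G09760, with 3 wild-type points (grey) and 3 mutant points (red) per gene and lines at the means. AT5G49180 fell from a mean of 73.1 to 5.76, the 4 genes at the right have every red point above every grey one, and AT5G09760 overlaps. Probe sets differ in binding, so heights of different genes are not levels to be ranked.

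On the lower side, AT3G49220, known from heat tolerance and guard-cell function, read 2054, 1449 and 1666 in wild-type and 972.1, 1019 and 966.7 in mutant seedlings. The mutant arrays lay within a narrow range below all wild-type arrays. The log2 difference was −0.78 ± 0.21 (limma adjusted p = 0.192), and the 3 mutant arrays gave −0.80, −0.73 and −0.81, so mutant replicate 1 did not stand apart from replicates 2 and 3.

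AT5G04960, a gene expressed in root hairs, read 776.6, 845.8 and 859.4 in wild-type and 525.1, 296.9 and 332.3 in mutant seedlings. All mutant arrays were lower, and replicate 1 the least. The log2 difference was −1.11 ± 0.26 (limma adjusted p = 0.156), with −0.64 on mutant replicate 1. Both measured root-hair markers had lower estimates too. EXPA7 was at −0.86 ± 0.35 and EXPA18 at −0.62 ± 0.30, with limma adjusted p of 0.356 and 0.413. On mutant replicate 1 these were −0.45 and −0.08. The summed intensity of these 2 of 8 listed root markers was 854 to 925 in wild-type seedlings and 419 to 767 in the mutant, and its part in the value of AT5G04960 was not tested. With a trend and robust prior AT5G04960 (limma adjusted p = 0.00187) and AT3G49220 (0.00410) both passed.

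AT5G51500 read 345.1, 173.0 and 217.3 in wild-type and 158.1, 98.7 and 119.7 in mutant seedlings. The groups were separated by a small gap, and the log2 difference was −0.85 ± 0.32 (limma adjusted p = 0.320). On mutant replicate 1 alone it was −0.53.

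AT5G09760 was among the 6 brightest members and its groups overlapped. It read 707.1, 721.8 and 604.2 in wild-type and 708.9, 705.0 and 555.8 in mutant seedlings. The log2 difference was −0.05 ± 0.20, with a 95% interval from −0.55 to 0.45 (limma adjusted p = 0.937). Another 3 members with a mean above the array median of 192.3 also overlapped between genotypes. These were AT1G02810 at −0.17 ± 0.27, AT3G43270 at −0.30 ± 0.35 and AT5G64640 at 0.01 ± 0.23, and their intervals of −0.82 to 0.49, −1.14 to 0.55 and −0.55 to 0.58 leave room for a change of up to about 2-fold.

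Precision differed sharply within the family. For the 10 members with a mean over all 6 arrays above the array median, the median SD of log2 values was 0.18 across wild-type and 0.30 across mutant arrays, and SEs of the difference were 0.20 to 0.35. For the other 30 members the median SDs were 0.80 and 0.86 and SEs ran from 0.21 to 0.90. Of the 10 members above the median, 4 had all mutant arrays above and 2 all below the wild type, where 16.0% and 15.7% of all probe sets that bright did so. Of the 30 others, 0 lay above and 2 below, against 6.26% and 6.07%. This split by brightness was chosen after the values were seen.

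The 7 measured members known from pollen stayed dim, between 3.03 and 126 on every array. None was called: 3 estimates were higher and 4 lower, and the adjusted p by limma was 0.451 or more. AT5G07420 had the largest estimate, 0.95 ± 0.50, from 14.7, 7.47 and 8.91 in the wild type to 7.56, 49.4 and 67.4 in the mutant. Its mutant replicate 1 lay among the wild-type arrays, and the estimate was 0.58 without mutant replicate 3 and 1.50 without mutant replicate 1. AT2G26450 stood at 0.71 ± 0.54, AT3G06830 at 0.20 ± 0.65 and AT3G05610 at −0.06 ± 0.21. AT3G17060 stood at −0.13 ± 0.67, AT5G07430 at −0.37 ± 0.41 and AT4G15980 at −0.76 ± 0.63. The shared probe set of PPME1 and AT5G07410 read 10.6, 87.9 and 14.3 in wild-type and 19.5, 14.2 and 3.43 in mutant seedlings. That of VGD1 and VGDH1 read 34.4, 34.4 and 4.23 against 10.3, 88.2 and 2.75. Both overlapped between genotypes.

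AT3G59010, annotated as PME61 and also as pectin methylesterase 35, is known from the stiffening of stem walls. It read 40.5, 149.8 and 148.5 in wild-type and 184.2, 14.4 and 9.27 in mutant seedlings. Mutant replicate 1 was the highest array of all and replicates 2 and 3 the lowest, so the log2 difference of −1.11 ± 0.90 (limma adjusted p = 0.623) joined opposite values. It was −2.06 without mutant replicate 1, −0.70 without mutant replicate 2 and −0.57 without mutant replicate 3. AT5G19730, known from guard cells under heat, stood at −0.95 ± 0.52 (limma adjusted p = 0.469), with mutant arrays at 148.7, 40.0 and 175.3 against 158.5, 289.6 and 224.6. The estimate was −0.40 without mutant replicate 2 and −0.51 on mutant replicate 1 alone.

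The remaining 18 members ranged from 2.51 to 231 in intensity. Every one overlapped between genotypes by construction, since members with separated arrays were described above. Lower estimates were those of AT1G05310, AT3G27980, AT5G04970, AT2G47280, AT5G20860, AT4G02300 (pectin methylesterase 39), AT2G43050 (ATPMEPCRD), AT2G36710 and AT1G11370. Higher ones were those of AT5G51490, AT2G19150, AT4G02320, AT4G33230, AT1G11590, AT3G05620, AT2G36700, AT3G24130 and AT3G47400. Their log2 differences ran from −1.26 for AT1G05310 to 0.43 for AT3G47400, and the smallest adjusted p by limma was 0.492. For AT1G05310 the mutant arrays read 68.7, 8.37 and 191.7, so a single array set much of the estimate.

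Many members sit next to another member on the chromosome. In the gene order of the RefSeq assembly TAIR10.1 there were 14 such adjacent pairs among the 60 loci, and both genes were measured in 6. The estimates of a pair had the same sign in 2 of the 6. AT5G04960 and AT5G04970 were both lower, at −1.11 and −0.77. AT4G02330 at 1.39 had a neighbour, AT4G02320, at 0.09, which read 3.50 to 24.6 in wild-type seedlings and 3.34 to 29.4 in the mutant. AT5G51500 at −0.85 had AT5G51490 at 0.05, and AT5G07420 at 0.95 had AT5G07430 at −0.37. The pair AT2G36700 and AT2G36710 stood at 0.33 and −0.05, and AT3G05610 and AT3G05620 at −0.06 and 0.26.

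Genes that act with pectin methylesterases were taken by locus from lists written from general knowledge. These lists were not checked against functional descriptions. The inhibitor list covers the family of pectin methylesterase inhibitors and their close relatives, and 26 of its 48 loci were measured. None passed the threshold, 17 estimates were lower and 9 higher, and the median log2 difference was −0.35, against −0.01 over all probe sets, of which 50.5% were lower. The inhibitor median was −0.15 on mutant replicate 1 alone and −0.14 with 64 added. On mutant replicate 1 the actin control ratio was not raised but that of GAPDH was, at 0.996, and their part was not tested. At an unadjusted p under 0.05, 7 of the 26 were lower and 2 higher, against 6.92% and 7.11% of all probe sets. The smallest p belonged to AT5G62360, which read 2231, 2193 and 1706 in wild-type and 813.0, 1177 and 953.6 in mutant seedlings. All mutant arrays were lower, and its log2 difference was −1.05 ± 0.23 (limma adjusted p = 0.136), with −1.30 on mutant replicate 1. AT3G17130 followed at −0.74 ± 0.21 (limma adjusted p = 0.217).

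Lower estimates also outnumbered higher ones among enzymes that cut demethylated pectin. Of 26 pectate lyase loci 22 were measured, 0 were called, 17 had lower estimates, and the median was −0.40. At an unadjusted p under 0.05, 5 of the 22 were lower and 1 higher, against 6.92% and 7.11% of all probe sets. AT1G67750 stood at −1.22 ± 0.29 (limma adjusted p = 0.160) and AT1G30350 at 1.70 ± 0.46 (limma adjusted p = 0.201). AT1G30350 was dim, with wild-type arrays at 41.25, 2.77 and 3.97, so its size depends on the constant added. Its log2 difference was 3.02 with 1 added and 0.82 with 64 added. Without mutant replicate 1, 2 pectate lyases and the protease gene ARA12 passed as lower, where 158 of all 22746 probe sets did so. That fit kept mutant replicates 2 and 3, whose actin control ratios were raised, and the part of these ratios was not tested. On mutant replicate 1 alone the pectate lyase median was −0.19. It was −0.14 without wild-type replicate 2 and −0.23 without mutant replicate 2. Of 64 loci of polygalacturonases and close relatives 43 were measured, 0 were called, 27 had lower estimates, and the median was −0.28. At an unadjusted p under 0.05, 3 of the 43 were lower and 1 higher, against 6.92% and 7.11% of all probe sets. On mutant replicate 1 alone the polygalacturonase median was −0.29. AT4G23820 stood at −0.67 ± 0.21 and AT1G10640 at −1.03 ± 0.33, with limma adjusted p of 0.250 and 0.259. The polygalacturonase median was −0.17 without wild-type replicate 3 and −0.15 without mutant replicate 1, and −0.17 with 64 added.

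**Figure D3:**
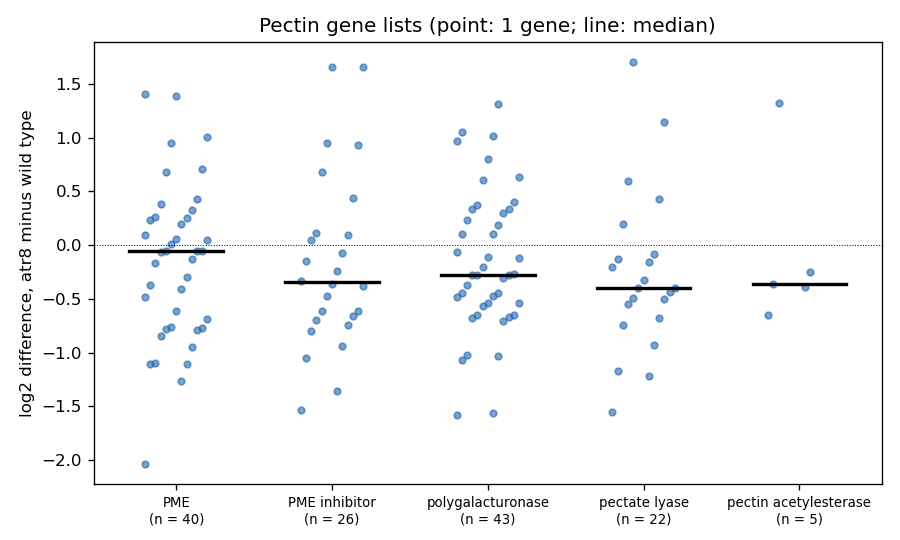
Log2 difference, atr8 minus wild type, of each measured gene in the pectin methylesterase family and in 4 lists of genes that act on pectin, with black lines at the medians. The family median is −0.06, and those of inhibitors, polygalacturonases, pectate lyases and pectin acetylesterases are −0.35, −0.28, −0.40 and −0.36. Single genes spread on both sides of 0 in every list.

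Of the 3 listed proteases that cut or regulate pectin methylesterases, ARA12, needed for the release of seed mucilage, read 1697, 1417 and 1447 in wild-type and 1125, 268.0 and 214.7 in mutant seedlings. Mutant replicate 1 was close to the wild type and replicates 2 and 3 were far below it. The log2 difference was −1.86 ± 0.62 (limma adjusted p = 0.273), −2.58 without mutant replicate 1 (limma adjusted p = 0.0419) and −0.42 on mutant replicate 1 alone. S1P, which cleaves the inhibitor-like region in the Golgi, stood at 0.56 ± 0.28 (limma adjusted p = 0.437).

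Other steps of pectin metabolism were thinly covered. Of 11 pectin acetylesterase loci 5 were measured and 0 called, with 4 estimates lower and 1 higher. The median was −0.36, and −0.04 on mutant replicate 1 alone. AT3G09405 stood at 1.32 ± 0.27 (limma adjusted p = 0.118) and AT1G57590 at −0.65 ± 0.26 (0.346). AT3G09405 read 261, 374 and 295 in wild-type and 587, 992 and 843 in mutant seedlings, so every mutant array was higher. Of 15 galacturonosyltransferases, which build homogalacturonan, GAUT15 alone was measured, at 0.22 ± 0.63. Of 4 pectin methyltransferase loci AT3G49720 alone was measured, at −0.29 ± 0.23. Of 8 pectin sensors and polygalacturonase inhibitors the receptor kinase gene FER alone was measured, at 0.02 ± 0.19 with a 95% interval of −0.44 to 0.49. The leaf marker RCA, 1 of 9 listed, stood at −0.85 ± 0.21 (limma adjusted p = 0.168), and its part in these values was not tested.

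**Figure D4:**
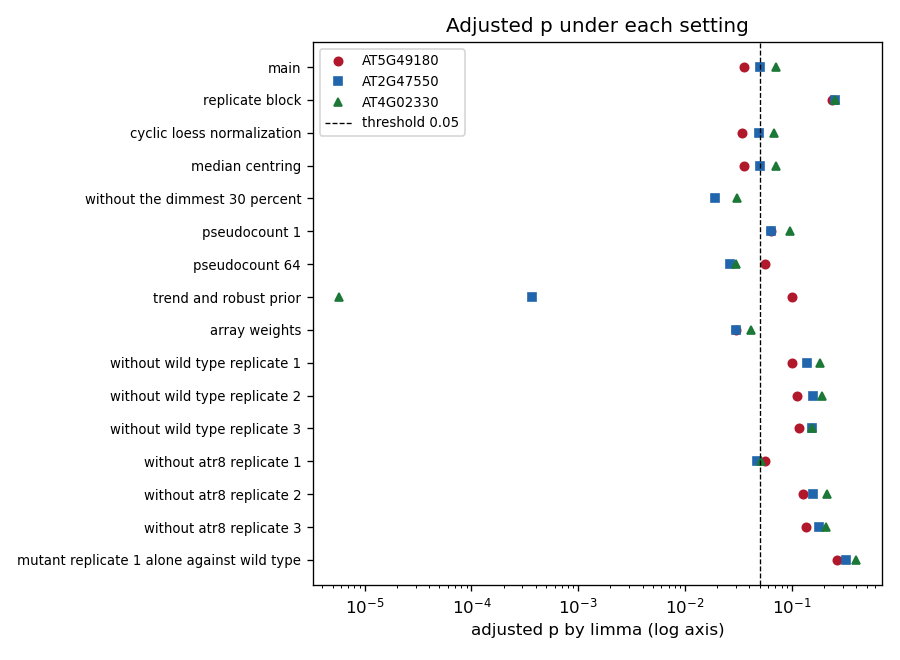
Adjusted p by limma on a log axis for AT5G49180, AT2G47550 and AT4G02330 under the main setting and 15 alternatives, with the threshold of 0.05 as a dashed line. AT5G49180 lies left of the line in 4 of the 15 settings in which it was tested, and AT2G47550 and AT4G02330 lie right of it in the main setting and reach 0.000372 and 5.72e-06 with a trend and robust prior.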

How the data were processed

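The authors deposited linear intensities, with 1 value for each array and probe set, after biotin labelling by the Affymetrix protocol per the labels. All 6 columns hold the same sorted values, which is what quantile normalization leaves. How probes were summarized and background was treated is not stated in the labels, and scanner files and detection calls were not used here. Of 22810 probe sets, 64 controls were left out and 22746 tested. The annotation listed 13513 probe sets with 1 gene, of which 13436 matched a RefSeq locus (TAIR10.1).

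Log2(intensity + 16) was fitted with limma 3.58.1 in R 4.3.3 (lmFit, eBayes), two-sided, with genotype as the only term and Benjamini-Hochberg adjustment over all tested probe sets, threshold 0.05. The fit was tested on simulated data. The brightest probe set stood for a gene in the lists. The members, lists and alternatives were chosen with earlier results of these data known. Every measured member is named. Array values are given for members that were called, separated between groups or under an unadjusted p of 0.05, and for the 6 brightest. Values shown for any other member were chosen after they were seen. Per list, called genes or the 2 with the smallest p are named. Alternatives were the replicate block, cyclic loess, median centring, a filter on the dimmest 30 percent, pseudocounts of 1 and 64, a trend with robust prior, array weights, each array left out, and mutant replicate 1 alone. The number of arrays limits the precision.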

Additional observations from a re-analysis of the deposited data

Results flagged for a closer look

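Control probe sets were not tested between genotypes, and their ratios of 3′ to 5′ signal exceeded the wild-type range on mutant replicates 2 and 3. For actin the ratio was 28.9 in mutant replicate 2 and 19.6 in replicate 3, against 2.17 to 2.66 in the wild type. For GAPDH it was 1.75 and 1.70, against 0.794 to 0.844, and for ubiquitin 2.10 and 2.27, against 0.717 to 1.02. The controls named dap, thr, lys and phe moved the same way: in mutant replicates 2 and 3 dap read 123.6 and 123.5 (wild type 5.63 to 9.25), thr 111.4 and 44.1 (3.66 to 10.7), lys 9.00 and 4.95 (1.41 to 1.97) and phe 24.8 and 16.7 (1.56 to 2.21). On mutant replicate 1 GAPDH at 0.996 and phe at 4.13 lay above the wild-type range, and the ratios of actin, ubiquitin, dap, thr and lys did not.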

How the results depend on the processing

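Limma calls among the 40 members moved with most settings, and the cause was not tested unless named. The replicate number as a block gave 0 members higher and 0 lower, and 0 of all probe sets in either direction with 2769 at an unadjusted p under 0.05. Same-numbered arrays shared little, as their deviations from the group means correlated at 0.0045 to 0.0141. Each of the 6 arrays still correlated best with its own number, and whether the numbers mark a pairing was not settled. With cyclic loess 1 member was higher and 1 lower, against 170 and 44 of all probe sets. Without the dimmest 30 percent 2 were higher and 0 lower, AT5G49180 not being tested, against 291 and 80 of all probe sets, and the medians were −0.30 for the family, −0.61 for inhibitors and −0.45 for polygalacturonases. With 1 added 0 members were lower, against 78 higher and 21 lower of all probe sets, and the inhibitor median was −0.55. With 64 added 2 members were higher and 0 lower, 269 of all probe sets were higher, and the medians were −0.14 for inhibitors, −0.17 for polygalacturonases and −0.24 for pectate lyases. A trend with robust prior gave 4 members higher and 2 lower, 813 and 646 of all probe sets, and 1 higher and 5 lower of the other pectin genes. Those genes pool the measured 26 inhibitors, 43 polygalacturonases, 22 pectate lyases, 5 pectin acetylesterases and 3 proteases with GAUT15, AT3G49720 and FER. Of all probe sets called in that setting 55.7% were higher, against 77.5% of those called in the main setting, where 162 were higher and 47 lower. Array weights gave 2 members higher, 229 of all probe sets higher and 76 lower, and an inhibitor median of −0.46. Mutant replicate 1 alone gave 0 members lower, 0 calls in all with 2194 at an unadjusted p under 0.05, 7 members above and 13 below the wild type (against 27.1% and 29.4% of all probe sets), and medians of −0.20 for the family, −0.15 for inhibitors and −0.19 for pectate lyases. Over the fits without 1 array, members ranged from 0 to 1 higher and 0 to 0 lower, all probe sets from 0 to 156 higher and 0 to 158 lower, separated members from 4 to 5 above and 5 to 8 below (12.5% at most above and 20.0% at most below, against 14.7% to 19.6% and 15.0% to 19.4% of all probe sets), other pectin genes from 0 to 3 lower, and medians from −0.30 to −0.03 for the family, −0.44 to −0.27 for inhibitors, −0.39 to −0.15 for polygalacturonases and −0.53 to −0.14 for pectate lyases. Signs turned for AT5G09760 (0.06 without mutant replicate 3, 0.07 on mutant replicate 1 alone), AT3G59010 and AT5G07420 (0.79 and −0.15 on replicate 1 alone), VEX1 (0.04 on replicate 1 alone), GAUT15 (range −0.30 to 0.72 over fits without 1 array; −0.30 without wild-type replicate 2, −0.13 without mutant replicate 3), AT3G49720 (0.05 on replicate 1 alone) and FER (range −0.05 to 0.11; −0.01 without wild-type replicate 3, −0.05 without mutant replicate 3, −0.16 on replicate 1 alone).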
